A study of Mus musculus with 6 samples.

Results

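Skeletal muscle releases proteins, called myokines, that act on the muscle fibre itself or travel to other organs. The expression of 9 genes of such proteins, Fgf21, Lif, Il6, Il15, Mstn, Metrnl, Bdnf, Gdf15 and Fndc5, was followed in mouse C2C12 myotubes with and without knockdown of Plin2, whose product perilipin 2 coats intracellular lipid droplets. The genes were taken from a list of names, drawn up with earlier results of these data known, and each was read from its probe set tied to a single gene symbol. Of the 9 genes, 7 had such a probe set, among 19938 genes in all. No probe set is listed for Gdf15 or Fndc5 in the annotation used, so these 2 genes have no value here.

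C2C12 is a clonal mouse myoblast line whose cells fuse into multinucleated myotubes when serum is lowered, here from 10% to 2%. Of the 6 arrays, 3 held cells transfected with siRNA against Plin2 and 3 held cells transfected with scrambled siRNA, all at 10 nM. Within each siRNA, 1 array came from cells given 200 µM palmitate bound to albumin (BSA), 1 from cells given 200 µM oleate bound to BSA, and 1 from cells given BSA alone, for 20 h at 2.5 fatty acid molecules per BSA. All groups share the transfection, the BSA and the low serum. Palmitate is saturated, whereas oleate has a double bond and a longer chain. The labels name neither the number nor the sequence of the siRNA oligonucleotides, so an effect of the oligonucleotides other than on Plin2 cannot be told apart from the loss of Plin2.

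The unit is log2 expression from RMA, in which a difference of 1 is a doubling. Correlations between arrays across all 35556 probe sets ran from 0.991 to 0.994 within an siRNA and from 0.987 to 0.992 between siRNAs. Plin2 checked the labels: it read 7.45 in palmitate, 7.63 in oleate and 6.95 in BSA with Plin2 siRNA, and 10.10, 10.03 and 9.29 with scrambled siRNA. All 12 myotube markers measured, Myog, Ckm, Acta1 and Myh3 among them, had mean levels in the highest 33.3% of probe sets, and so did 6 of 7 markers of undifferentiated myoblasts. Of 6 immune cell markers measured 0 reached the highest 33.3%, and Ptprc, Adgre1 and Csf1r were in the lowest 33.3%, as were Adipoq, Lep and Retn among 5 adipocyte markers. Among 6 fibroblast markers, Col1a1 and Col3a1 were in the highest 33.3% and Lum in the lowest 33.3%. Among 3 osteoblast markers measured, Sp7 and Ibsp were in the lowest 33.3%.

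The myokines work in different ways. FGF21 is a hormone of the fibroblast growth factor family that signals through FGF receptors with the coreceptor beta-klotho, and muscle is known to make it under mitochondrial and other cellular stress, through the transcription factor ATF4. LIF and IL-6 are cytokines of 1 family that share the signalling receptor gp130. IL-15 signals through receptor chains shared with IL-2, myostatin limits muscle growth through activin type II receptors, meteorin-like is a secreted relative of meteorin, and BDNF is a neurotrophin. GDF15 signals through GFRAL in the hindbrain, and FNDC5 is the membrane precursor of irisin.

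Promoter windows of Fgf21 and Lif are shown because these were the 2 members whose expression differed between siRNAs. The windows come from RefSeq on build GRCm38.p6, run from 250 bases before the annotated transcription start to 50 after it, and are written 5′ to 3′ on the strand of the gene. The Fgf21 window is chr7:45615441-45615740 on the minus strand, and the Lif window is chr11:4257318-4257617 on the plus strand. Capitals mark matches, on either strand, to TGATGNAA (the composite element of CHOP and ATF4), TGACTCA (AP-1), CACGTG (an E-box) or TTCNNNGAA (a STAT site).
Fgf21: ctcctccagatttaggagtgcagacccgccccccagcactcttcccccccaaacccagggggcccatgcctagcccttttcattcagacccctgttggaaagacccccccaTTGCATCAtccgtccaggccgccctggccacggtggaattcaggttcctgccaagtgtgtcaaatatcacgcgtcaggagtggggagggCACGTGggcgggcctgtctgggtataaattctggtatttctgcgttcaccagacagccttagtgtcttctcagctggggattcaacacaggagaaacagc
Lif: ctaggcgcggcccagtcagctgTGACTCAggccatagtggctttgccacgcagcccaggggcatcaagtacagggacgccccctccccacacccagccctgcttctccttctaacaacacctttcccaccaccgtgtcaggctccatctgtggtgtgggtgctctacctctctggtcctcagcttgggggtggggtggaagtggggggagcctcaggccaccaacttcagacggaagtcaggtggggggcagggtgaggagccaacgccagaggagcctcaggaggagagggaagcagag

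The Fgf21 window held 1 match to TGATGNAA, which lies on the opposite strand and begins 139 bases before the start, and 1 match to CACGTG, 50 bases before it. Among all 32851 windows of the same length, 3.97% held TGATGNAA and 7.15% held CACGTG. The Lif window held 1 match to TGACTCA, 228 bases before the start, a motif that 5.20% of windows held. Il6 also held 1 match to TGACTCA, on the opposite strand 249 bases before its start. Bdnf, with 7 windows, held 1 match to TGATGNAA, just after a start, and 1 to TTCNNNGAA. Gdf15, with 2 windows, held 1 match to CACGTG. The shorter E-box core CANNTG, which overlaps CACGTG, was found 3 times in the Fgf21 window and 3 times in that of Lif, and 72.3% of all windows held it. Il15 had no promoter window and could not be searched. The single windows of Mstn, Metrnl and Fndc5 held no match to the 4 motifs marked in capitals. Such a match is a run of letters in a window and was not tied to binding by any measurement here.

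Fgf21 fell in every treatment when Plin2 was knocked down, by the widest margin of the 7 measured myokines, and Lif fell less. Il6, Il15, Mstn, Metrnl and Bdnf did not pass the test. Changes were tested with limma across 21789 named probe sets, and a call needed a Benjamini-Hochberg adjusted p below 0.05. Of the 7 members 2 were called with the knockdown, 0 higher and 2 lower, against 17.1% of all probe sets called in either direction, 8.5% higher and 8.58% lower. The median change of the 7 members was -0.06 on the log2 scale, and that of all probe sets was 0.01. The siRNA groups did not overlap for 3 of the 7, Fgf21, Lif and Metrnl, against 30.3% of all probe sets.

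**Figure D1:**
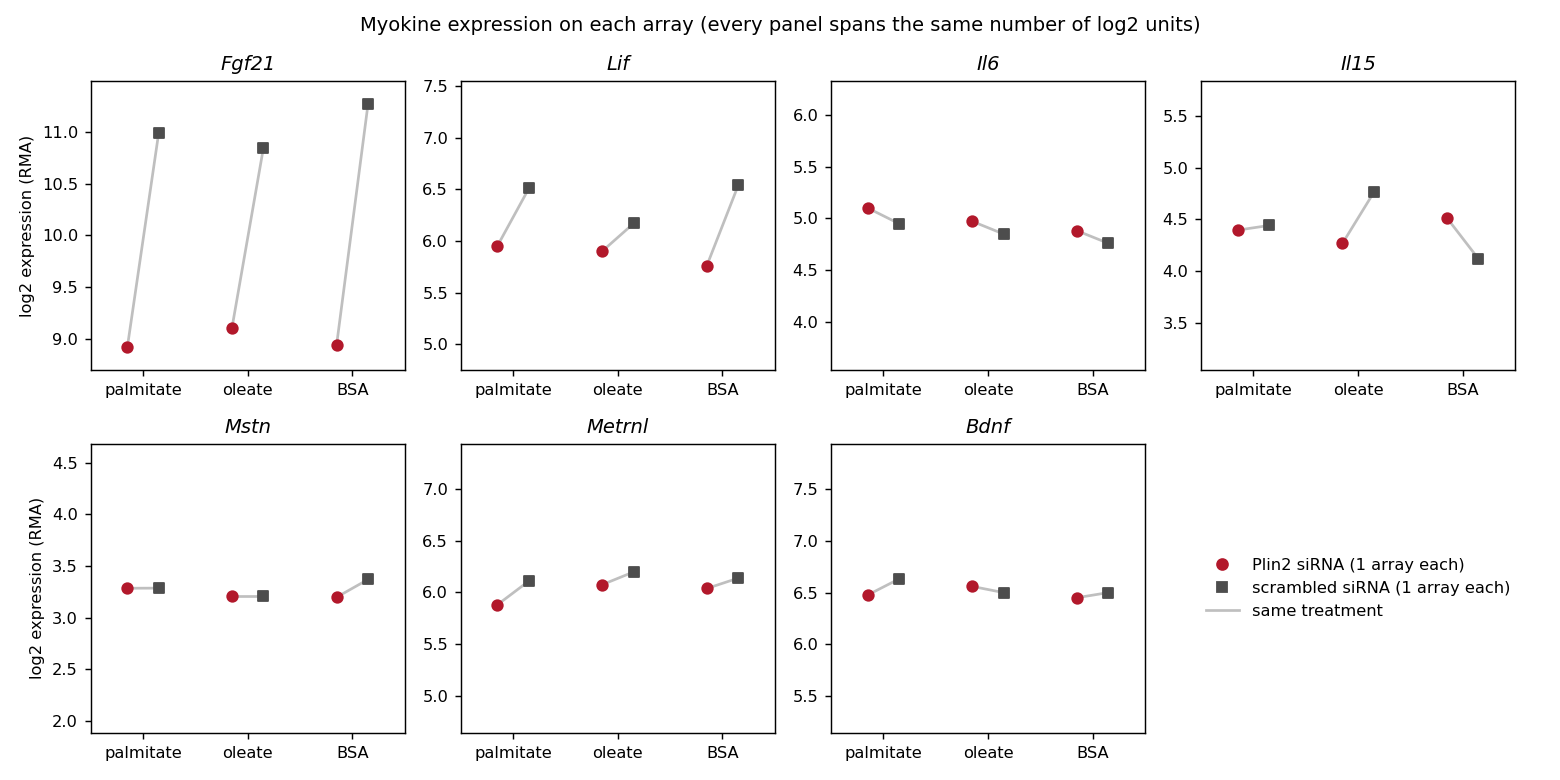
Log2 expression (RMA) of the 7 measured myokines on each array, by treatment, with Plin2 siRNA as red circles and scrambled siRNA as grey squares; each point is 1 array and a line joins the arrays of 1 treatment. Panels span the same number of log2 units; Fgf21 sits between 8.92 and 9.11 with Plin2 siRNA and between 10.85 and 11.27 with scrambled siRNA.

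Fgf21 read 8.92 in palmitate, 9.11 in oleate and 8.94 in BSA with Plin2 siRNA, against 11.00 in palmitate, 10.85 in oleate and 11.27 in BSA with scrambled siRNA (probe set 10563344). All 3 knockdown arrays were low and all 3 scrambled arrays high, with 1.74 log2 units between the nearest arrays of the groups. The means were 8.99 ± 0.10 with Plin2 siRNA and 11.04 ± 0.22 with scrambled siRNA (SD, n = 3 each, 1 array per treatment). These SDs hold treatment differences and are not a spread of replicates. The change was -2.05 (SE 0.09, 95% interval -2.25 to -1.84) or 4.14-fold lower, with a limma adjusted p of 2.09e-07. Of all 21789 probe sets, 99.9% changed by less, and Fgf21 ranked 16 by p-value. The drop was -2.08 in palmitate, -1.74 in oleate and -2.33 in BSA. In these bulk cultures, fewer cells that make a transcript and less of it per cell cannot be told apart. Of the 12 myotube markers 7 fell and 1 rose with the knockdown, and their array means were 11.46 to 11.51 with Plin2 siRNA and 11.53 to 11.79 with scrambled siRNA. The part of that shift in the Fgf21 and Lif results was not tested.

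Lif, which promotes proliferation of myoblasts, read 5.95 in palmitate, 5.90 in oleate and 5.76 in BSA with Plin2 siRNA, against 6.51 in palmitate, 6.17 in oleate and 6.54 in BSA with scrambled siRNA (probe set 10373918). The groups did not overlap, but the nearest arrays were only 0.22 apart, the scrambled oleate array being closest to the knockdown arrays. The means were 5.87 ± 0.10 with Plin2 siRNA and 6.41 ± 0.20 with scrambled siRNA (SD over treatments, n = 3 each, 1 array per treatment). The change was -0.53 (SE 0.12, 95% interval -0.79 to -0.28) or 1.45-fold lower, with a limma adjusted p of 0.00815. The difference was -0.56 in palmitate, -0.27 in oleate and -0.78 in BSA, and the call was lost in 3 of 12 alternative settings. Without the Plin2 siRNA BSA array the change was -0.41 with an adjusted p of 0.0917, and without the scrambled BSA array it was -0.41 with 0.0998. Both of these settings take the BSA pair out of the knockdown change, so they are not separate checks. With all probe sets of the array in the fit the change was -0.53, as in the main fit, with an adjusted p of 0.0755.

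Il6, the cytokine that contracting muscle releases, read 5.10 in palmitate, 4.97 in oleate and 4.88 in BSA with Plin2 siRNA, against 4.95, 4.85 and 4.76 with scrambled siRNA (probe set 10520452). It was slightly higher with Plin2 siRNA in all 3 treatments, by 0.12 to 0.15, but the groups overlapped. The change of 0.13 (95% interval -0.11 to 0.38) did not pass the limma test, with an adjusted p of 0.533. The mean level of Il6 was low, at 4.92, with 39.95% of probe sets lower. Lif and Il6, of the same cytokine family, had estimates of opposite sign, but the interval of Il6 includes 0. The difference between the 2 was not tested.

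Il15, a cytokine made by muscle that supports natural killer cells, read 4.40 in palmitate, 4.27 in oleate and 4.51 in BSA with Plin2 siRNA, against 4.44, 4.76 and 4.12 with scrambled siRNA (probe set 10579958). The groups overlapped, and the highest and the lowest value both came from scrambled arrays, oleate and BSA. The mean change of -0.05 (95% interval -0.39 to 0.29) averaged differences of -0.05 in palmitate, -0.49 in oleate and 0.39 in BSA, and the limma adjusted p was 0.907. Il15 was in the lowest 33.3% of probe sets, which had mean log2 values under 4.49.

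Mstn, the gene of myostatin, was also in the lowest 33.3%, at 3.28 in palmitate, 3.21 in oleate and 3.20 in BSA with Plin2 siRNA, against 3.28, 3.21 and 3.37 with scrambled siRNA (probe set 10346250). The groups overlapped, and the 2 oleate arrays had the same deposited value in every digit. The change of -0.06 (95% interval -0.29 to 0.17) had a limma adjusted p of 0.814.

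Metrnl, whose product is known in mice to promote energy expenditure in fat, read 5.88 in palmitate, 6.07 in oleate and 6.04 in BSA with Plin2 siRNA, against 6.11, 6.20 and 6.14 with scrambled siRNA (probe set 10383615). Every knockdown array lay below every scrambled array, by as little as 0.04. The change of -0.15 (95% interval -0.37 to 0.07) did not pass the limma test, with an adjusted p of 0.402.

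Bdnf, the neurotrophin, read 6.48 in palmitate, 6.56 in oleate and 6.45 in BSA with Plin2 siRNA, against 6.63, 6.50 and 6.50 with scrambled siRNA (probe set 10474399). The groups overlapped and the order of the siRNAs turned in oleate. The change was -0.05 (95% interval -0.26 to 0.16), with a limma adjusted p of 0.834.

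Neither fatty acid shifted any measured myokine past the threshold. For palmitate against BSA, 0 of 7 members were called, against 0.00918% of probe sets; for oleate against BSA it was 0 of 7 against 0.0734%; and for palmitate against oleate it was 0 of 7 against 0.262%. At an unadjusted p below 0.05 the count was also 0 of 7 in each of these limma comparisons. Of all 21789 probe sets, 1134 were below it for palmitate against BSA, 1365 for oleate against BSA and 2007 for palmitate against oleate. Each fatty acid change rests on 2 pairs of arrays, 1 per siRNA, and the comparisons with BSA share the BSA arrays. The estimates ran from -0.15 for Fgf21 to 0.21 for Il6 in palmitate against BSA, from -0.13 for Fgf21 to 0.20 for Il15 in oleate against BSA, and from -0.14 for Metrnl to 0.20 for Lif in palmitate against oleate.

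Fgf21 changed by -0.15 in palmitate (95% interval -0.40 to 0.10, limma adjusted p = 0.974) and by -0.13 in oleate (95% interval -0.38 to 0.12, adjusted p = 0.93), each against BSA. The lower estimates came from the scrambled arrays, at -0.28 for palmitate and -0.43 for oleate, whereas the Plin2 siRNA arrays gave -0.03 and 0.16. Between the saturated and the monounsaturated fatty acid at the same dose and time, Fgf21 differed by -0.02 (95% interval -0.27 to 0.23, adjusted p = 0.983). Among the other members, the intervals for palmitate against oleate were -0.12 to 0.51 for Lif, -0.19 to 0.42 for Il6 and -0.41 to 0.13 for Metrnl, so differences of these sizes remain possible. They were -0.52 to 0.32 for Il15, -0.21 to 0.35 for Mstn and -0.24 to 0.28 for Bdnf. Il6 was highest in palmitate, next in oleate and lowest in BSA within each siRNA, but its palmitate change of 0.21 had an adjusted p of 0.967 and an interval of -0.10 to 0.51.

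**Figure D2:**
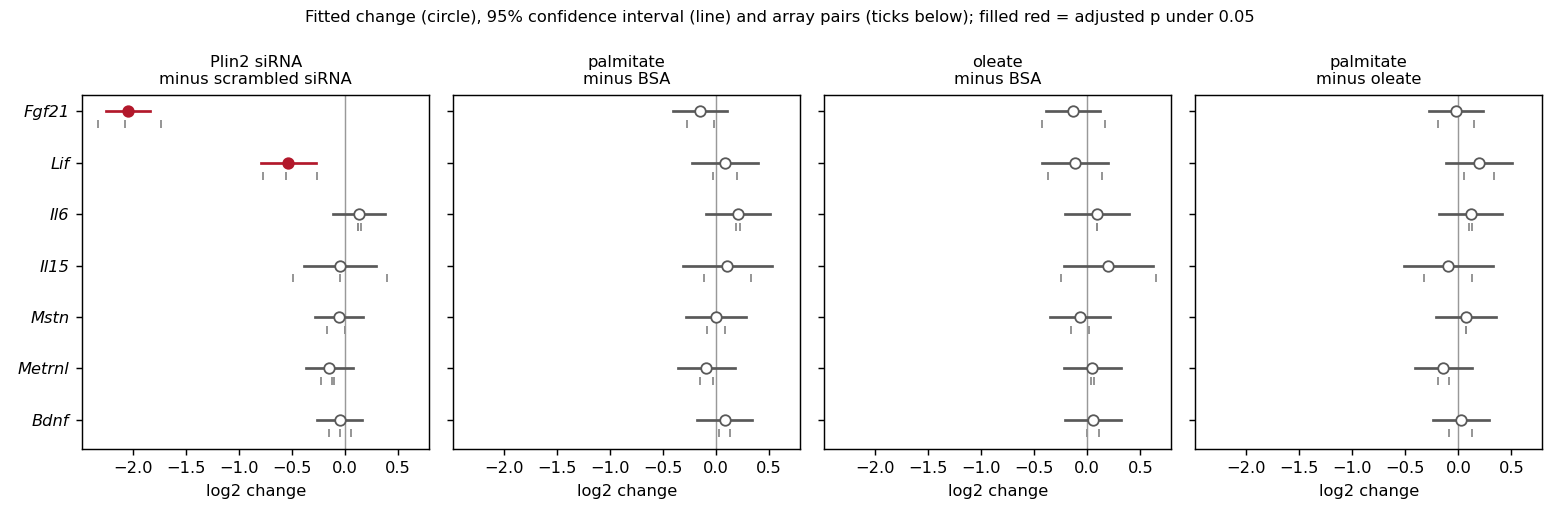
Log2 changes of the 7 measured myokines in the siRNA comparison and the 3 fatty acid comparisons, with 95% intervals from limma as lines and each array pair as a tick below; filled red circles passed the threshold. The intervals of Fgf21 (-2.25 to -1.84) and Lif (-0.79 to -0.28) in the siRNA comparison exclude 0, and the fatty acid intervals all include it.

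Whether the knockdown altered the response to fatty acid was tested as an interaction, the response to any fatty acid with Plin2 siRNA minus that with scrambled siRNA. None of the 7 members was called by limma, as was 0% of all probe sets, and every adjusted p was 1. At an unadjusted limma p below 0.05 there were 2 of the 7 members, against 551 of all 21789 probe sets. They were Fgf21 with an interaction of 0.42 (95% interval 0.05 to 0.80, unadjusted p = 0.0299) and Il15 with -0.66 (95% interval -1.28 to -0.04, unadjusted p = 0.037). For Il15, palmitate and oleate were lower than BSA by 0.12 and 0.25 with Plin2 siRNA, and higher than BSA by 0.32 and 0.64 with scrambled siRNA. For Lif the interaction was 0.37 (95% interval -0.18 to 0.91), with differences from BSA of 0.19 in palmitate and 0.14 in oleate with Plin2 siRNA and of -0.03 and -0.37 with scrambled siRNA. The interaction estimates of the other 4 members lay between -0.08 for Metrnl and 0.17 for Mstn.

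Of 22 listed receptors of these myokines 21 were measured; 2 rose, 4 fell and 15 did not pass, with a median change of -0.01. Over all probe sets 8.5% were called higher and 8.58% lower with the knockdown, with a median of 0.01, and the counts and medians of this and the following lists are descriptions to be read beside those shares. Il2rb, the beta chain through which IL-15 and IL-2 signal, fell most, at 5.58 in palmitate, 5.38 in oleate and 5.50 in BSA with Plin2 siRNA, against 6.45, 6.65 and 6.92 with scrambled siRNA. Its groups did not overlap, and the change was -1.18 (SE 0.12, limma adjusted p = 5.46e-05), while Il15ra, the high-affinity IL-15 receptor chain, changed by 0.07 with an adjusted p of 0.779. Of the FGF receptors, Fgfr1 fell by 0.46, Fgfr3 by 0.54 and Fgfr4 by 0.43, and Fgfr2 changed by 0.14 without passing. Klb, the gene of beta-klotho, was in the lowest 33.3% of probe sets and changed by -0.12 with an adjusted p of 0.572. Lifr, the LIF receptor, rose by 0.43 and Acvr2a, an activin type II receptor bound by myostatin, by 0.47, whereas Il6st, the gene of gp130, changed by -0.04 with an adjusted p of 0.757. Klb, Il15ra, Fgfr2, Fgfr4 and Il6st were named after their values were seen.

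Among proteases and binding proteins that process or hold these ligands, 17 of 17 were measured; 2 rose, 2 fell and 13 did not pass, with a median of -0.10. Fstl3, a secreted inhibitor of myostatin and activins, read 8.16 in palmitate, 7.70 in oleate and 8.03 in BSA with Plin2 siRNA, against 9.69, 8.92 and 9.65 with scrambled siRNA. Its change was -1.45 (SE 0.09, limma adjusted p = 1.14e-06), with no overlap, while the related inhibitor Fst changed by 0.14 with an adjusted p of 0.298. Furin, the protease that cleaves myostatin and other precursors, fell by 0.58; Adam10, a membrane sheddase, rose by 0.53, and Sort1, a sorting receptor that binds the BDNF precursor, rose by 0.44. Fstl3 and Acvr2a were also called in palmitate against oleate, at 0.61 with an adjusted p of 0.0478 and at -0.50 with 0.0422. Within each siRNA Fstl3 was lowest in oleate and Acvr2a highest in oleate. Fst was named after its value was seen.

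Of 22 listed transcription regulators of the myokine genes 20 were measured; 6 rose, 2 fell and 12 did not pass, with a median of 0.06. The 2 that fell were Atf3 and Atf4. Other stress regulators of the list, Atf5, Ddit3 and Xbp1, did not pass, and their siRNA groups overlapped. Their means with Plin2 siRNA and with scrambled siRNA were 8.27 and 8.34 for Atf5, 6.44 and 6.52 for Ddit3, and 10.49 and 10.58 for Xbp1. These genes were named after their values were seen. Atf3, a stress-induced factor, read 5.44 in palmitate, 5.44 in oleate and 5.32 in BSA with Plin2 siRNA, against 7.61, 6.71 and 6.68 with scrambled siRNA, a change of -1.60 (SE 0.15, limma adjusted p = 3.69e-05) with no overlap. Atf4, which drives Fgf21 in muscle under stress, changed by -0.33 with an adjusted p of 0.00419, and was named after its value was seen. Those that rose included Ppargc1a, a coactivator of mitochondrial genes, at 1.52, Mef2c and Myod1, muscle transcription factors, at 1.23 and 0.46, and Ppara, a fatty acid receptor that drives Fgf21 in mouse liver, at 0.54. The Mef2c change leaned on the scrambled palmitate array, at 8.42 against 9.60 in scrambled oleate and 9.70 in scrambled BSA. Over 12 alternative settings it ran from 0.84 to 1.42 and kept the call. The called regulators were named for their siRNA change or after it was seen, so sharing the siRNA contrast with Fgf21 follows from that choice. A link between any of them and the Fgf21 change was not tested.

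Targets of the integrated stress response, the ATF4 programme to which Fgf21 belongs, were measured for 16 of 16 listed genes, Fgf21 not counted. Of these 0 rose, 8 fell and 8 did not pass, with a median of -0.26, against 0.01 over all probe sets. The estimates of 16 of 16 were below 0, the nearest to 0 being Cebpb at -0.000934. The share of all probe sets below 0 was not counted. This list was drawn up with earlier results of these data known. Atf3, Atf5 and Ddit3 are also among the transcription regulators above, so the fall of Atf3 is counted in both lists. The most changed after Atf3 were Mthfd2, a mitochondrial folate enzyme, at -1.07, Nupr1, a stress-induced nuclear protein, at -0.84, Slc7a11, the cystine transporter, at -0.71, and Trib3, a pseudokinase induced by ATF4, at -0.65. Nupr1 read 8.09 in palmitate, 7.98 in oleate and 7.96 in BSA with Plin2 siRNA, against 8.78, 8.88 and 8.87 with scrambled siRNA, with no overlap. Ddit3, the gene of CHOP, changed by -0.09 with an adjusted p of 0.655; Ddit3 and Cebpb were named after their values were seen. The count of genes that fell dropped to 3 when all probe sets of the array entered the fit. In each fatty acid comparison 0 of the 16 were called.

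Genes that answer to IL-6 and LIF were measured for 10 of 10; 1 rose, 3 fell and 6 did not pass, with a median of -0.14. Fos changed by -0.84 and Myc, both growth-response transcription factors, by -0.50; Pim1, a kinase induced through STAT3, changed by -0.76, and Saa3, an acute-phase protein, rose by 0.39. Fos read 6.73 in each of the 3 knockdown arrays, against 7.68 in palmitate, 7.73 in oleate and 7.30 in BSA with scrambled siRNA. Socs3, the feedback inhibitor of gp130 signalling, changed by -0.33 with an adjusted p of 0.0596, and Stat3 by -0.06 with 0.631; both were named after their values were seen.

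Other secreted muscle factors were measured for 37 of 40 listed genes; 2 rose, 6 fell and 29 did not pass, with a median of 0.00. Vegfa, the vascular growth factor, changed by -0.60, Gdf11, the closest relative of myostatin, by -0.59, and Angptl4, a fasting-induced inhibitor of lipoprotein lipase, by -0.44. Inhbb, an activin subunit, rose by 0.43 and Igf2, a growth factor of muscle differentiation, by 0.42. Angptl4 was also the only one of the 37 called in a fatty acid comparison. It read 10.06 in palmitate, 10.52 in oleate and 7.70 in BSA with Plin2 siRNA, against 10.43, 10.73 and 8.41 with scrambled siRNA, a rise of 2.19 with palmitate and 2.57 with oleate. Both calls were lost when all probe sets of the array entered the fit, with adjusted p-values of 0.147 for palmitate and 0.0577 for oleate.

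Some of the calls among these genes depended on single arrays, on 1 pair of arrays or on which probe sets entered the fit. For a knockdown change, leaving out either array of a treatment takes out that whole pair, so both settings give the same change. Without either BSA array, Plin2 siRNA or scrambled, the knockdown changes of Fgfr3 (-0.42), Atf4 (-0.30), Ppara (0.42), Saa3 (0.32), Angptl4 (-0.30) and Inhbb (0.33) no longer passed the limma test. With all probe sets in the fit, Fgfr3, Ppara, Saa3, Angptl4, Inhbb, Furin, Slc7a11, Trib3 and Myc did not pass, and Inhbb also failed without the intensity trend. Called genes not named above kept the call in 3 of 12 settings for Sparc, 4 of 11 for Il1b and 6 of 12 for Ddit4. The counts were 8 of 12 for Asns, 9 of 12 for Gdnf and Egr1, and 11 of 12 for Chac1 and Foxo1. These genes were named for this count alone. In palmitate against oleate, the calls of Fstl3 and Acvr2a were lost without the scrambled palmitate array, at 0.55 and -0.50, without the scrambled oleate array, at 0.43 and -0.44, and in 4 further settings each.

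**Figure D3:**
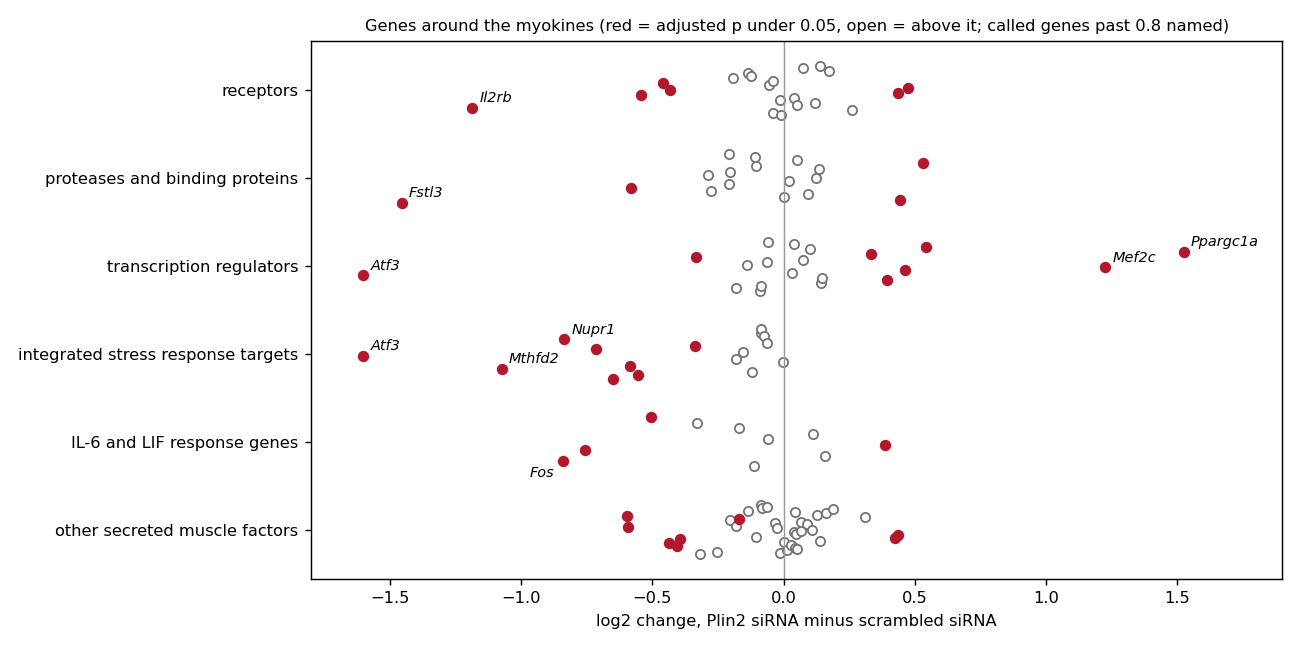
Log2 change, Plin2 siRNA minus scrambled siRNA, of every measured gene in 6 lists of genes around the myokines, with filled red circles for genes past the limma threshold and open circles for the rest; vertical scatter within a list has no meaning. The 16 integrated stress response targets lie between -1.60 and -0.000934, whereas the other lists spread to both sides. The lists were drawn up with earlier results of these data known and share some genes, Atf3 among them.

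The genes whose pattern over the 6 arrays was most like that of Fgf21 were Fam189a2, Pfkp, an isoform of phosphofructokinase, and Mybpc2, the fast-muscle myosin-binding protein C. Their mean-centred values differed from those of Fgf21 by a root mean square of 0.164, 0.175 and 0.184 log2 units, with Pearson r of 0.997, 0.997 and 0.984 over 6 arrays. Each was lower with Plin2 siRNA, by changes of -1.77, -1.74 and -1.95. For Lif the nearest were Hs3st3a1 at 0.0391, Sv2b at 0.0469 and Synpo2 at 0.0524, with r of 0.993, 0.988 and 0.988. These 3 share with Lif a scrambled oleate array that lies closest to the knockdown arrays. For Il15 they were Opn1sw at 0.0471, Gm15998 at 0.0477 and Wnt5a at 0.0598, with r of 0.987, 0.973 and 0.955, and like Il15 they had mean levels in the lowest 33.3% of probe sets. The genes were picked from all 19938 for this likeness, so the correlations describe the pick and carry no test.

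**Figure D4:**
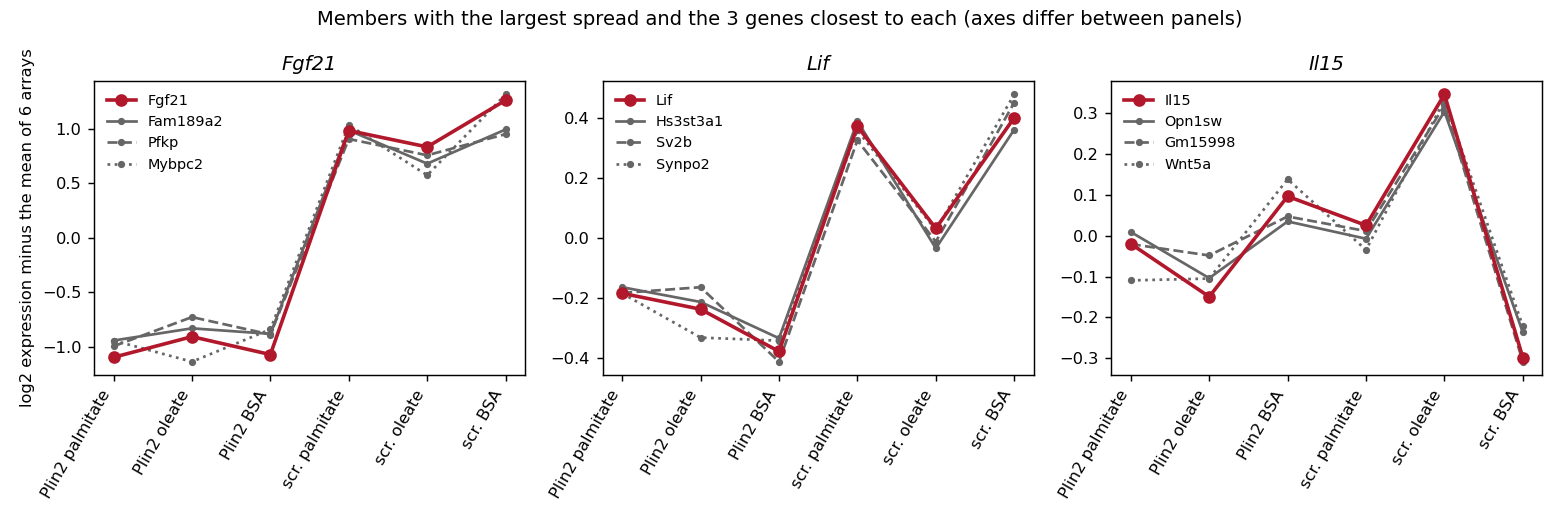
Mean-centred log2 expression on the 6 arrays of Fgf21, Lif and Il15, each with the 3 genes nearest to it in pattern; lines only join the values of 1 gene, and scr. stands for scrambled siRNA. Fgf21 and Lif and their nearest genes are lower on the 3 Plin2 siRNA arrays, while Il15 and its nearest genes are lowest in scrambled BSA and highest in scrambled oleate.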

How the data were processed

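Total RNA (100 ng) from the 6 cultures was labelled with biotin and hybridised to Affymetrix whole-transcript arrays, 1 per condition, per the labels' protocols. The deposited log2 values, 1 per probe set, were made by the authors with RMA, per the submitters' processing notes; its version and any build are not given here, and the log base was read from the range of the values. They were used as deposited. RMA summarises a probe set over its probes and compresses differences between weak signals.

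In GEO's platform annotation, 21789 of 35556 probe sets had 1 gene symbol, 1621 had several and 12146 were not listed. By Entrez ID, 21698 were matched to RefSeq (GRCm38.p6), with 0 symbols differing. Array medians lay between 4.94 and 5.02.

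The fit used limma 3.58.1 (R 4.3.3; siRNA and treatment as terms, eBayes with an intensity trend, 2 residual plus 9.21 prior degrees of freedom), and the interaction with siRNA by any fatty acid added (1 plus 17.5). P-values were adjusted over the 21789 probe sets, and every adjusted p is limma's. With 1 array per condition, the p-values of the main fit do not rest on a spread of replicates. Their error is the variation of the siRNA change between treatments, and of the fatty acid changes between siRNAs. Any real dependence of the siRNA change on treatment is part of that error. Nothing in the labels says that the cultures were separate, so the variation may also be technical, and the number of arrays limits precision. The script was tested on simulated data.

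The members, the gene lists and the alternatives (trend, probe sets, low-signal filter, normalization, centring, arrays left out, interaction term) were chosen with earlier results of these data known. Named list genes were up to 5 per list with the largest called siRNA change, plus those called with a fatty acid; exceptions are marked in the text. Nearest genes in pattern were the 3 with the smallest root-mean-square difference, for the 3 members with the largest SD.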

Additional observations from a re-analysis of the deposited data

Results flagged for a closer look

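For 3 members, both fatty acid responses went one way with Plin2 siRNA and the other way with scrambled siRNA. For Il15 the interaction was -0.66, for Lif 0.37 and for Mstn 0.17 on the log2 scale, each the response to any fatty acid with Plin2 siRNA minus that with scrambled siRNA. The limma interaction test gave an adjusted p of 1 for each. Il15 and Mstn were in the lowest 33.3% of probe sets.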

How the results depend on the processing

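Of 361 member values recomputed under alternative settings, 332 kept their direction and their side of the threshold, 3 lost the call and 26 changed sign. The 3 lost calls were all the knockdown change of Lif, called in 9 of 12 settings, and none of the 26 was called. Fgf21 was called with the knockdown in 12 of 12 settings, at -2.20 to -1.91, and its highest limma adjusted p was 0.00377. Fits without 1 array have fewer residual degrees of freedom than the main fit. Some of them still gave far smaller p-values for Fgf21, so their p-values for Fgf21 are not given. Fits of this kind count among the settings here and gave the Lif p-values without a BSA array, which need the same caution. With all probe sets in the fit, 1 member was called with the knockdown (Lif adjusted p = 0.0755). Leaving out 1 array gave 1 to 2 called members. Of 443 values of called list genes, 56 lost the call and 0 reversed.

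Probe sets called with the knockdown numbered 2403 without a trend, 2159 with all probe sets and 2213 to 3836 without 1 array. For palmitate against BSA they were 0 with all probe sets, 119 with the 4 arrays of the comparison and 2 to 117 without 1 array. For oleate against BSA they were 2 without the trend, 0 with all probe sets, 31 without the lowest 33.3% of probe sets, 64 with 4 arrays and 3 to 262 without 1 array. For palmitate against oleate they were 0 without the trend, 0 with all probe sets, 25 after quantile normalization, 86 with 4 arrays and 30 to 538 without 1 array. Members called stayed at 0 in all of these fatty acid settings, and the causes were not tested.

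Signs turned without 1 array in knockdown changes, which then ranged over Il15 -0.27 to 0.17 and Bdnf -0.10 to 0.00524, in palmitate against BSA, over Fgf21 -0.36 to 0.0596, Il15 -0.23 to 0.44, Lif -0.10 to 0.27, Mstn -0.0844 to 0.087 and Bdnf -0.00158 to 0.16, in oleate against BSA, over Fgf21 -0.36 to 0.10, Il15 -0.14 to 0.53, Lif -0.31 to 0.0851, Mstn -0.16 to 0.0146 and Bdnf -0.0268 to 0.14, and in palmitate against oleate, over Fgf21 -0.25 to 0.21, Il15 -0.43 to 0.24, Lif -0.00259 to 0.40 and Bdnf -0.0569 to 0.11. With arrays centred on their medians, Mstn in palmitate against BSA was -0.016 and Bdnf in palmitate against oleate -0.00212. Il15 and Mstn have no value without the lowest 33.3% of probe sets, and the interaction could not be fitted without an array. Each measured member has 1 probe set, so averaging probe sets could not change a value. Arrays were paired by treatment in the fit itself, and no further pairing was tried because the labels give no replicate numbers.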
